A study of Mus musculus with 36 samples.

Results

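The response to nutlin-3a was measured in mouse lymphoma cells that carried the R246Q mutant of TRP53. The members are the libraries that the labels give as R246Q, those of the lines AH47A, 287 and 621. They are 6 of the 36 libraries of the series. The R246Q nutlin group is 1 library of each line after 5 µM nutlin-3a for 12 hours together with 25 µM of the caspase inhibitor QVD-OPH. The R246Q untreated group is 1 library of each of the same lines without nutlin-3a, and whether QVD-OPH was added to it is not stated in the labels. Effects of nutlin-3a and of the inhibitor therefore cannot be told apart wherever the untreated cultures lacked it. All 6 libraries share the Em-myc background, a Myc transgene under an immunoglobulin heavy chain enhancer, which gives B cell lymphomas in mice. The same lines with G280, I192S, R270H, V170M or a negative control were set against them, each with and without nutlin-3a, 6 libraries apiece. The lines are established lymphoma lines, and every line gave 1 library per group. No label names a second culture of a line, so the 3 lines are the only replicates.

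p53, made from Trp53, is a transcription factor that binds DNA as a tetramer. Its target Mdm2 encodes the ubiquitin ligase that binds it and sends it to degradation. Nutlin-3a occupies the p53 pocket of MDM2, so p53 builds up without DNA damage and its target genes for growth arrest, cell death and feedback are induced. R246Q is a missense change in the DNA-binding domain. Lines of the Em-myc model are often wild type for Trp53, in which case a mutant added on top shares the cell with the endogenous protein. The design text calls the added proteins human, while the reads were counted on mouse genes, and which species' numbering R246Q follows was not settled here.

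Promoter sequences of 5 genes that moved with nutlin-3a are shown because the matches in them belong to the factors that the induced gene groups are known for. All are the 250 bases before a RefSeq start on GRCm38.p6, 5′ to 3′ on the gene's strand. Capitals mark matches on either strand. In Cdkn1a, the p21 inhibitor of cyclin-dependent kinases (chr17:29090729-29090978, plus strand, 1 of 2 starts listed), and in Ccng1, cyclin G1 (chr11:40755287-40755536, minus strand), the capitals are a match to the p53 response element with at most 2 mismatches and the C and G of each core kept.
Cdkn1a: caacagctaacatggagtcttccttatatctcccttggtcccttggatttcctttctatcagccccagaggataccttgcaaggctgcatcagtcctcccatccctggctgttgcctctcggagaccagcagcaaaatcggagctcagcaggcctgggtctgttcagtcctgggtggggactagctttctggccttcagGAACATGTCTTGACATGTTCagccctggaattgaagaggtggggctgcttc
Ccng1: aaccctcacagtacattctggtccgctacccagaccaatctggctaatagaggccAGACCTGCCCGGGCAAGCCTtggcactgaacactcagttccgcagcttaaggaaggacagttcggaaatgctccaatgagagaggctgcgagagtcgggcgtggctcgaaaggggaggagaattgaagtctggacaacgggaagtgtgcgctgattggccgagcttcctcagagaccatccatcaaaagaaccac
In the interferon-induced genes Ifit1 (chr19:34640639-34640888, plus strand), Isg15 (chr4:156200819-156201068, minus strand) and Cxcl10 (chr5:92348890-92349139, minus strand), capitals mark GAAANNGAA, the core of the interferon-stimulated response element. Neighbouring matches can overlap.
Ifit1: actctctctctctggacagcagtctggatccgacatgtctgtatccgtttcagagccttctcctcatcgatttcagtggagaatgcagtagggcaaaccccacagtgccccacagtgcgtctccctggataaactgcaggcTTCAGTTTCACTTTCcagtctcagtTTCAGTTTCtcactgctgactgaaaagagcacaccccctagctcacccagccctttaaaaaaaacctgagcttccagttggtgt
Isg15: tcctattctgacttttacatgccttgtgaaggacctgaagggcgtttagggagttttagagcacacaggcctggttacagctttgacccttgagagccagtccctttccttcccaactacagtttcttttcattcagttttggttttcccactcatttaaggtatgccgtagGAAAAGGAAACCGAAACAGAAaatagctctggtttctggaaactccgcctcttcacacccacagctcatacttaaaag
Cxcl10: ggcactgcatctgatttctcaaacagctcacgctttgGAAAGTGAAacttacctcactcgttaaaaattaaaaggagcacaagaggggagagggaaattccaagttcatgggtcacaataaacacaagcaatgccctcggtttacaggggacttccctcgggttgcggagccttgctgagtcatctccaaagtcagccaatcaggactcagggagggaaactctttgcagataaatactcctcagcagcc
Over the 300-base windows that RefSeq gives around starts, GAAANNGAA was found in 14 of 27 windows of the interferon list (51.9%) and in 6.94% of the 10657 windows of all genes tested. The p53 response element was found in 1 of 8 windows of the p53 feedback list, 2 of 12 of the arrest list, 0 of 17 of the apoptosis list and 3 of 26 of the other p53 targets, beside 0.403% of the windows of all genes tested. In the 745 windows of genes called higher with nutlin the shares were 9.26% for GAAANNGAA and 0.94% for the p53 response element. In the 449 windows of genes called lower they were 4.9% and 0.223%. A match describes these letters only, and promoter windows were found for 8392 of the 10882 genes tested.

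The R246Q libraries held 5941164 to 9698782 counts, and all 3 nutlin libraries (5941164 to 6454096) were shallower than the 3 untreated ones (8348801 to 9698782). Levels are counts scaled to library size (CPM) after TMM scaling. The part of the depth difference in the results was not tested. Trp53 stood at 728, 973 and 684 CPM in the R246Q nutlin libraries of AH47A, 287 and 621, and at 885, 1345 and 1109 CPM in the R246Q untreated libraries, scaled over all 36 libraries. In the negative control it stood at 261, 446 and 300 CPM with nutlin and at 217, 291 and 206 CPM untreated. Every R246Q library was therefore above every control library, and these counts can hold transcripts of the endogenous gene and of the construct. B cell markers were present in all 6 R246Q libraries, with a summed level of the 18 mature B cell genes of 5480 to 6900 CPM with nutlin and 6530 to 8360 CPM untreated. The 8 T cell markers summed to 0.858 to 22.5 CPM with nutlin and 0.977 to 27.6 CPM untreated. Cd3e, Cd4 and Cd8a had 0 counts throughout, while 2 of the 8 passed the filter on low counts. The 10 myeloid markers summed to 9.78 to 35.8 CPM with nutlin and 6.59 to 19.1 CPM untreated. Mpo, Elane and S100a8 were at 0, while 3 of the 10 passed that filter, Itgam among them. Erythroid and fibroblast lists stayed at or below 2.69 CPM in every library. In bulk samples such as these, fewer cells of a type and less RNA per cell cannot be told apart.

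Nutlin-3a was followed by higher levels of the classical p53 targets in each of the 3 R246Q lines. Cdkn1a (chr17:29090979-29100722) had 188, 398 and 122 CPM in the nutlin libraries of AH47A, 287 and 621, against 0.523, 5.29 and 2.56 CPM untreated. That is a log2 change of 6.46 ± 0.41 (SE, 3 pairs of libraries, edgeR quasi-likelihood adjusted p = 0.000227). Mdm2 (chr10:117688875-117710758) had 247, 951 and 253 CPM with nutlin and 80.9, 178 and 83.1 CPM untreated, with line 287 the highest in both groups. Its log2 change was 1.88 ± 0.18 (edgeR adjusted p = 0.000208). Ccng1, a p53 target that feeds back on MDM2, had 357, 605 and 510 CPM with nutlin and 67.2, 67.3 and 83.2 CPM untreated (log2 2.73 ± 0.16, edgeR adjusted p = 5.29e-06). None of these genes overlapped between the groups.

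Not all genes of the p53 death programme passed the threshold. Pmaip1, which encodes the BH3-only protein NOXA, had 187, 656 and 154 CPM with nutlin and 1.15, 12.5 and 5.74 CPM untreated. Its log2 change of 5.73 ± 0.39 passed (edgeR adjusted p = 0.000866), but not without line 287 (5.72, edgeR adjusted p = 0.0994). Bbc3, which encodes the BH3-only protein PUMA, had 187, 496 and 75.5 CPM with nutlin and 10.1, 10.1 and 17.3 CPM untreated. The groups did not overlap. Bbc3 did not pass in edgeR on the 6 libraries (log2 3.998 ± 0.85, adjusted p = 0.121), but did without line 621 (4.93, adjusted p = 0.00159). It also passed in DESeq2 (adjusted p = 0.000213) and in edgeR with all 36 libraries and an additive line term (adjusted p = 0.00038). In edgeR it did not pass without AH47A or without 287 (adjusted p = 0.395 and 0.308). Nor did it with RLE scaling or without the low-count filter (edgeR adjusted p = 0.125 and 0.22). Bax, the pore-forming effector, had 147, 218 and 149 CPM with nutlin and 56.1, 70.2 and 79.5 CPM untreated (log2 1.31 ± 0.17, edgeR adjusted p = 0.00111). Bcl2l11, which encodes BIM, had 150, 223 and 166 CPM with nutlin and 53.9, 50.03 and 76.8 CPM untreated (log2 1.58 ± 0.19, edgeR adjusted p = 0.00128). Fas, the death receptor, was under the filter on low counts. It had 100 counts in the 3 nutlin libraries together and 0 in the untreated ones, at least 48.95-fold higher against a floor of 3 counts over the group. Sesn2, a stress-induced brake on mTORC1, had 39.0, 96.4 and 40.8 CPM with nutlin and 4.60, 3.53 and 5.49 CPM untreated (log2 3.57 ± 0.35, edgeR adjusted p = 0.00150). Trp53 itself was not called in the R246Q response (log2 -0.48 ± 0.15, edgeR adjusted p = 0.0618), and DESeq2 gave it an adjusted p of 0.0330. Myc, at 3913, 3216 and 4848 CPM with nutlin and 3539, 2444 and 4148 CPM untreated, was not called (log2 0.26 ± 0.16, edgeR adjusted p = 0.302).

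**Figure D1:**
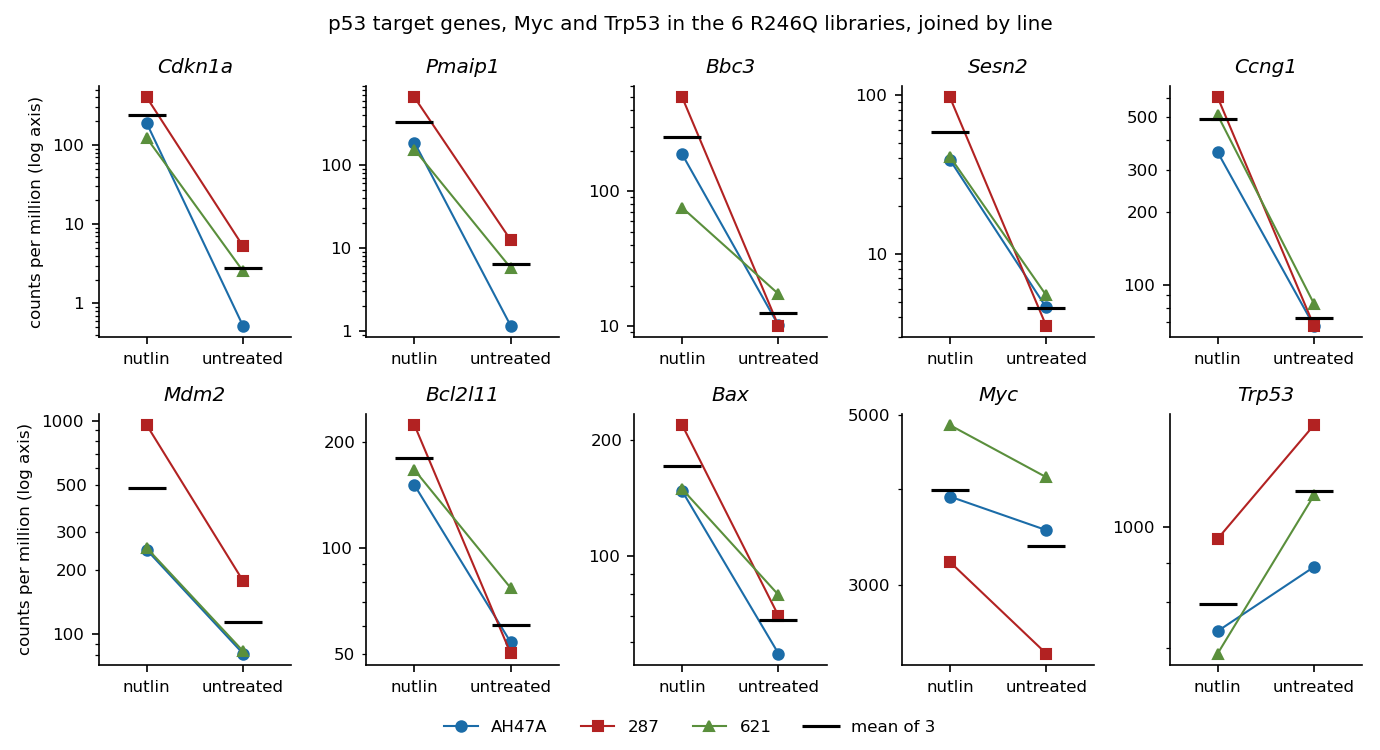
Level of 8 p53 targets, Myc and Trp53 in the 6 R246Q libraries, in CPM on a log axis, with nutlin left of untreated and lines joining the 2 libraries of each cell line; black bars are means of 3. The 8 targets sit higher with nutlin in every line, while Myc and Trp53 overlap between the groups.

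Across the genome, 724 of 10882 genes tested were higher with nutlin (6.65%) and 435 were lower (4%) at an edgeR adjusted p under 0.05. At an unadjusted p under 0.05 the numbers were 1701 and 1575. The higher genes reached further: 391 were over 2-fold higher and 159 over 4-fold higher, while 119 were over 2-fold lower and 7 over 4-fold lower. Of the 1159 called genes, 1150 had the same sign in all 3 lines (99.2%), beside 52.8% of all genes tested, and the calls were made on these same lines. The groups did not overlap for 1210 genes that were higher and 996 that were lower, beside 10882 genes tested. How many genes would separate by chance with 3 libraries against 3 was not tested. The number of calls depended on the lines. Without line 621 it was 204 higher and 24 lower, and without 287 it was 519 and 307. Every called gene that could still be tested kept its sign, which the same sign in all 3 lines fixes for nearly all of them.

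The p53 target lists rose to different degrees, and each count below is beside the 6.65% of all genes that were called higher. In the feedback list, 5 of 6 genes rose, with Mdm4, Rchy1 and Ppm1d beside Mdm2 and Ccng1, and 2 of 6 without line 621, where Mdm4 and Rchy1 had adjusted p-values of 0.0799 and 0.0706. In the arrest list, 5 of 10 rose, and 3 of 10 without line AH47A. Plk2, a polo-like kinase, had 125, 247 and 0.858 CPM with nutlin and 11.1, 24.6 and 0.488 CPM untreated, so that line 621 barely expressed it (log2 3.30 ± 0.25, edgeR adjusted p = 6.88e-05). Gtse1, a microtubule-associated regulator of p53, rose as well (log2 1.72 ± 0.21, edgeR adjusted p = 0.00242). Zmat3, an RNA-binding splicing regulator, had 429, 509 and 639 CPM with nutlin and 55.4, 17.96 and 94.97 CPM untreated (log2 3.46 ± 0.42, edgeR adjusted p = 0.0185; 0.0614 without AH47A). Btg2, Gadd45b, Gadd45g, Plk3 and Sfn did not pass, at log2 0.24, 0.40, -1.08, -0.40 and -0.95.

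Of 13 apoptosis targets tested, 7 rose and 1 fell. Phlda3, a PH-domain repressor of AKT, had 12.8, 61.4 and 15.3 CPM with nutlin and 0.00, 0.208 and 0.244 CPM untreated (log2 7.52 ± 0.74, edgeR adjusted p = 2.33e-06). Tnfrsf10b, the TRAIL receptor, had 2.69, 19.5 and 40.8 CPM with nutlin and 0.627, 1.87 and 5.25 CPM untreated (log2 2.97 ± 0.29, edgeR adjusted p = 0.000151). The groups overlapped for it, since lines 287 and 621 were higher than AH47A in both groups, while all 3 lines were higher with nutlin. Trp53inp1, a p53 cofactor, rose 2.18 ± 0.22 on the log2 scale (edgeR adjusted p = 0.00112). Steap3, a metalloreductase, was the member that fell (log2 -0.76 ± 0.21, edgeR adjusted p = 0.0470; 0.120 without 287 and 0.282 without 621). Of the BCL2 family 3 of 12 rose, namely Pmaip1, Bax and Bcl2l11, and the survival genes Bcl2, Bcl2l1 and Mcl1 did not pass (log2 0.03, -0.62 and -0.27). None of 16 caspase and apoptosome genes passed in edgeR, where 5 were higher and 1 lower at an unadjusted p under 0.05, and DESeq2 called 1 lower. Of the 8 death receptor and adaptor genes that passed the filter on low counts, Fas not among them, Tnfrsf10b rose. Without the filter, or without line AH47A, 2 genes of the list were called higher.

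In the metabolic p53 targets 4 of 16 rose and 1 fell. Ak1, adenylate kinase, had 8.88, 33.3 and 8.58 CPM with nutlin and 0 counts in all untreated libraries, at least 158-fold higher against a floor of 3 counts over the group (edgeR adjusted p = 2.94e-05). Lpin1, a phosphatidate phosphatase, had 17.3, 40.2 and 17.2 CPM with nutlin and 4.50, 1.66 and 3.66 CPM untreated (log2 2.84 ± 0.48, edgeR adjusted p = 0.0165). Gpx1, a glutathione peroxidase, fell (log2 -0.58 ± 0.16, edgeR adjusted p = 0.0468; 0.141 without 287 and 0.282 without 621), and Tigar, Gls2 and Sesn1 did not pass (log2 -0.23, -0.36 and -0.50). Among 9 repair targets 3 rose. Ercc5, the XPG endonuclease of nucleotide excision repair, had 94.5, 198 and 83.7 CPM with nutlin and 16.5, 20.1 and 10.6 CPM untreated (log2 2.93 ± 0.18, edgeR adjusted p = 5.84e-06). Polk, a translesion polymerase, rose 1.79 ± 0.20 on the log2 scale (edgeR adjusted p = 0.000758). Of 15 other p53 targets 8 rose. Fam212b had 48.0, 52.5 and 38.1 CPM with nutlin and 1.99, 1.87 and 1.95 CPM untreated (log2 4.56 ± 0.24, edgeR adjusted p = 1.20e-06). Zfp365 had 100, 162 and 23 counts with nutlin and 3 untreated in all, a ratio of 139 with a counting interval of 47.3 to 681. Ephx1, an epoxide hydrolase, rose 4.88 ± 0.71 on the log2 scale (edgeR adjusted p = 0.0210), and the long noncoding RNA Trp53cor1 had 92 counts with nutlin and 3 untreated.

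The interferon list was the group with the highest median of all lists. Of 26 members tested, 17 rose and none fell, beside 6.65% of all genes called higher. The median log2 change was 3.39, beside -0.03 over all genes tested. Ifit1 had 140, 409 and 261 CPM with nutlin and 0.209, 0.208 and 0.122 CPM untreated (log2 10.40 ± 0.56, edgeR adjusted p = 9.93e-09). Rsad2, which encodes the antiviral protein viperin, had 34.2, 173 and 172 CPM with nutlin and 0.105, 0.208 and 0.122 CPM untreated (log2 9.57 ± 0.62, edgeR adjusted p = 2.81e-08). Ifit3 had 372 counts with nutlin and 0 untreated, at least 182-fold higher, and Oasl1 had 197, 1324 and 177 counts with nutlin and 1 untreated count, in line 287, which also gave most of the counts with nutlin. The pooled ratio for Oasl1 was 2494, with an interval of 447 to 98550. Such intervals cover counting error only and not the spread between lines. Isg15, the ubiquitin-like modifier, had 90, 335 and 50 counts with nutlin and 2 untreated, both in line 287, a ratio of 349 with an interval of 96.0 to 2889. Irf7, the inducible regulator of interferon genes, rose 3.69 on the log2 scale (edgeR adjusted p = 0.0117), and Irf9, its partner in the STAT complex, rose as well (edgeR adjusted p = 0.00114). Stat2, which carries the interferon signal, did not pass (log2 -0.14). The medians by line were 1.75 in AH47A, 4.57 in 287 and 3.82 in 621. Without any 1 line, 17 to 21 members rose. The Ifit and Oas families hold closely related copies, and how reads were divided between these is uncertain.

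NF-kB genes and activation markers rose beside them. The counts of this paragraph stand beside 6.65% of all genes called higher and 4% called lower. Of 15 NF-kB genes 7 rose and none fell. Tnfaip3, the feedback inhibitor A20, had 23.3, 63.4 and 15.8 CPM with nutlin and 2.82, 0.830 and 1.10 CPM untreated (log2 4.27 ± 0.58, edgeR adjusted p = 0.00883). Relb, a subunit of the noncanonical pathway, had 13, 100.4 and 19.2 CPM with nutlin and 1.15, 3.63 and 2.69 CPM untreated (log2 3.84 ± 0.37, edgeR adjusted p = 0.000594). Of 7 costimulation and activation genes 5 rose. Cd80, a ligand of CD28, had 5.55, 76.9 and 13.04 CPM with nutlin and 0.00, 0.519 and 0.244 CPM untreated (log2 6.87 ± 0.56, edgeR adjusted p = 2.33e-06). Cd69, an early activation marker, had 22.2, 59.4 and 13.7 CPM with nutlin and 1.36, 1.14 and 0.366 CPM untreated (log2 4.94 ± 0.37, edgeR adjusted p = 9.62e-06). Of 15 MHC class I presentation genes 3 rose, led by the peptide transporter Tap1 (log2 1.97 ± 0.27, edgeR adjusted p = 0.00585), and 1 fell, the immunoproteasome subunit Psmb10 (log2 -0.70 ± 0.20, edgeR adjusted p = 0.0488; 0.0810 without 287 and 0.325 without 621). Without line 621, 1 gene of the class I list was called higher: Tapbp had an adjusted p of 0.158 there and B2m of 0.205, and B2m had 0.0549 without 287.

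Targets of the stress-response factor ATF4 rose in 12 of 21 cases and fell in none, beside 6.65% of all genes called higher. Trib3, a pseudokinase, had 20.4, 49.9 and 41.0 CPM with nutlin and 1.57, 0.415 and 1.83 CPM untreated (log2 4.80 ± 0.50, edgeR adjusted p = 0.00129). Ddit3, which encodes CHOP, had 29.8, 89.4 and 23.5 CPM with nutlin and 8.89, 8.41 and 4.76 CPM untreated (log2 2.51 ± 0.30, edgeR adjusted p = 0.00227). Atf3 had 23.5, 58.4 and 13.6 CPM with nutlin and 0.941, 0.311 and 1.34 CPM untreated (log2 5.03 ± 0.69, edgeR adjusted p = 0.00680; 0.05 without AH47A). The serine synthesis genes of the list, Psat1 and Phgdh, did not pass (log2 0.11 and -0.14). Without line 621, 7 of the 21 rose.

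**Figure D2:**
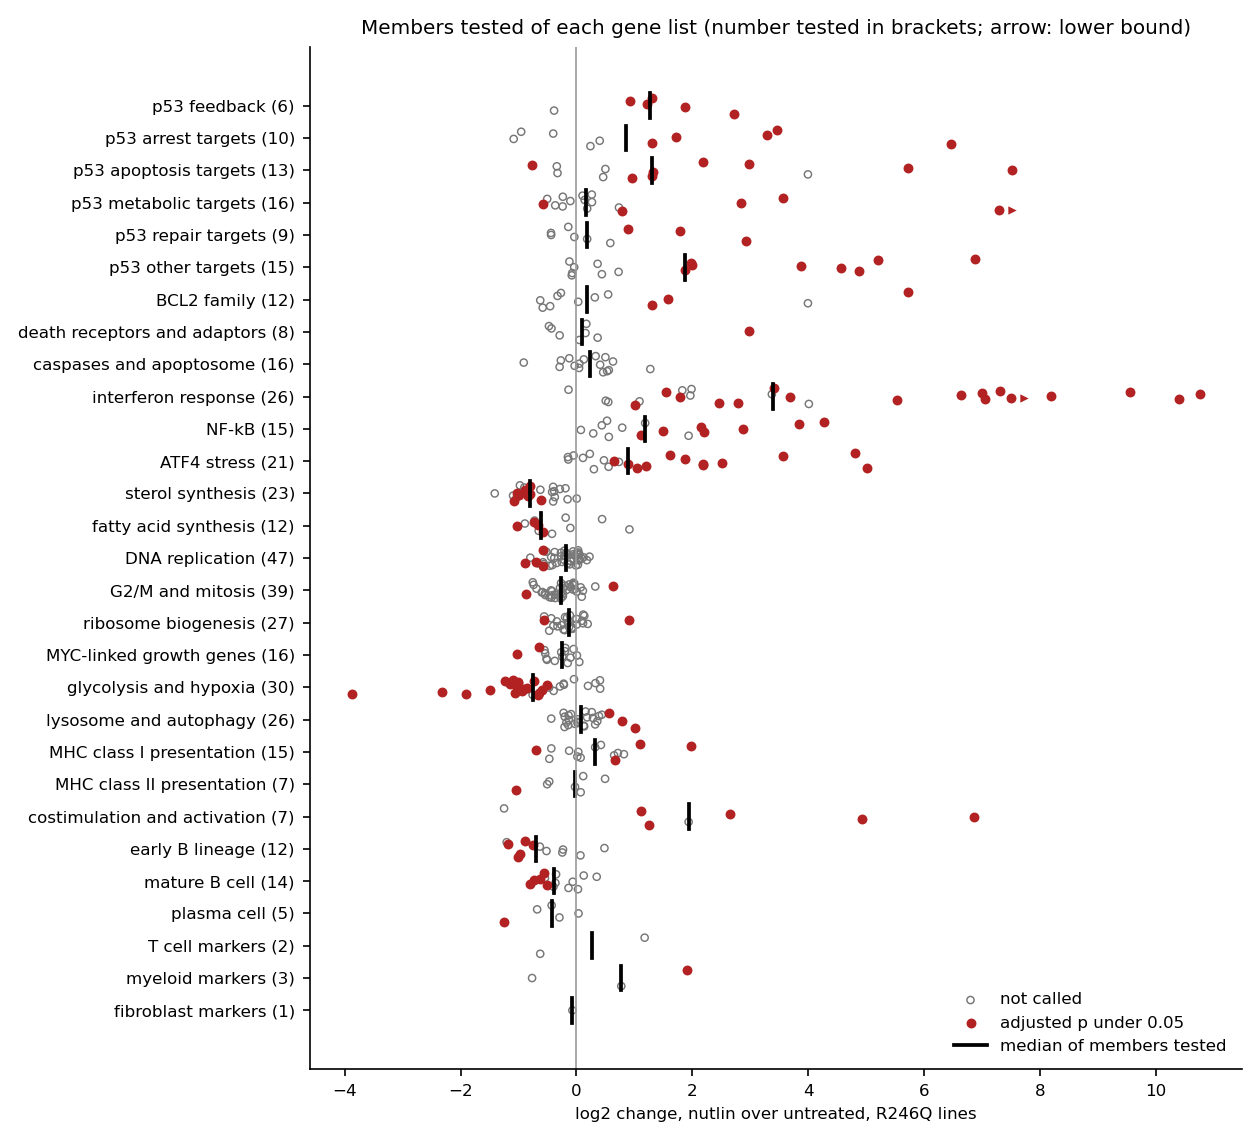
Log2 change with nutlin, nutlin over untreated, of every member tested of each gene list in the R246Q lines; red points have an edgeR adjusted p under 0.05, open points do not, black bars are medians, and arrows mark genes with 0 untreated counts, drawn at their lower bound. The interferon list has the highest median (3.39) and the sterol list the lowest (-0.80).

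Glycolysis and hypoxia genes were the largest group to fall, with 19 of 30 tested, none higher, beside 4% of all genes. Ankrd37, a hypoxia-induced ankyrin repeat gene, had 5.23, 0.921 and 4.29 CPM with nutlin and 66.0, 15.4 and 70.9 CPM untreated (log2 -3.88 ± 0.23, edgeR adjusted p = 2.33e-06). Egln3, a prolyl hydroxylase that marks HIF for degradation, had 17.0, 1.69 and 16.8 CPM with nutlin and 101, 7.06 and 76.5 CPM untreated (log2 -2.32 ± 0.20, edgeR adjusted p = 5.71e-05). The groups overlapped for Egln3, with line 287 low in both. Bnip3, a mitophagy receptor, fell by 1.90 on the log2 scale (edgeR adjusted p = 0.0302; 0.128 without AH47A). Ldha, lactate dehydrogenase, had 1337, 504 and 1570 CPM with nutlin and 2084, 1662 and 2625 CPM untreated (log2 -1.03 ± 0.21, edgeR adjusted p = 0.0189; 0.107 without 621). Without line 621, 3 of 30 fell, beside 24 of the 11312 genes tested in that fit. The list median was then -0.82 on the log2 scale, against -0.75 with all lines. By line it was -0.72 in AH47A, -0.94 in 287 and -0.60 in 621.

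Sterol synthesis fell in 8 of 23 genes and fatty acid synthesis in 4 of 12, with none higher, beside 4% of all genes called lower. Lss, lanosterol synthase, had 69.4, 10.6 and 28.8 CPM with nutlin and 110, 32.4 and 54.9 CPM untreated (log2 -1.03 ± 0.19, edgeR adjusted p = 0.0110; 0.122 without 621). Fasn, fatty acid synthase, fell by 0.73 on the log2 scale (edgeR adjusted p = 0.0246). Without line 287, 5 sterol and 2 fatty acid genes were called lower. Without AH47A, 12 sterol genes were called lower and 1 fatty acid gene higher. Without line 621 no gene of either list passed, while the list medians were -0.75 for sterol and -0.62 for fatty acid genes, against -0.80 and -0.61 with all lines. The sterol medians by line were -0.32 in AH47A, -1.03 in 287 and -0.70 in 621.

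Few cell cycle and growth genes passed, beside 4% of all genes called lower and 6.65% called higher. Estimates were negative for 34 of 47 replication and 33 of 39 mitosis genes, beside 5763 of 10882 genes tested. At an unadjusted edgeR p under 0.05, 15 replication and 11 mitosis genes were lower and 0 and 1 higher. Over all genes 1575 were lower and 1701 higher at that threshold. With all 36 libraries and line by treatment, 19 replication and 22 mitosis genes were called lower and 2 of each higher. That fit called 2384 of 12321 genes lower and 2492 higher. Its libraries of other constructs share a line's own response to nutlin, so their number overstates the independent replicates. In the fit of the 6 libraries, 4 of 47 replication genes fell, E2f2, Gins2, Uhrf1 and Ccne1, and none rose (8.51% lower, median log2 -0.18). Without line 287, 2 of the 47 were called lower, and without line 621 none was. E2f2, an activator of the S phase programme, had 144, 142 and 102 CPM with nutlin and 211, 313 and 202 CPM untreated (log2 -0.89 ± 0.15, edgeR adjusted p = 0.00650; 0.129 without 621). Of 39 mitosis genes the phosphatase Cdc25b fell (log2 -0.87 ± 0.17, edgeR adjusted p = 0.0123; 0.122 without 621) and the kinetochore gene Ndc80 rose (log2 0.64 ± 0.18, edgeR adjusted p = 0.0461; 0.175 without 287 and 0.259 without 621). Their median by line was 0.01 in AH47A, -0.71 in 287 and -0.04 in 621, so line 287 stood apart. The called shares of the mitosis list, 2.56% in each direction, were below those of all genes, and without AH47A 6 of the 39 were called lower. Of 27 ribosome biogenesis genes 3.7% were called in each direction, below the shares of all genes. Of these 1 rose, the RNA polymerase I factor Rrn3 (log2 0.91 ± 0.15, edgeR adjusted p = 0.00512; 0.0993 without 621), and 1 fell, Ppan (log2 -0.56 ± 0.14, edgeR adjusted p = 0.0281; 0.0665 without AH47A and 0.177 without 621). Of 16 MYC-linked growth genes Ldha and the transferrin receptor Tfrc fell, the second with a log2 change of -0.64 ± 0.15 (edgeR adjusted p = 0.0240; 0.0594 without AH47A and 0.138 without 621).

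**Figure D3:**
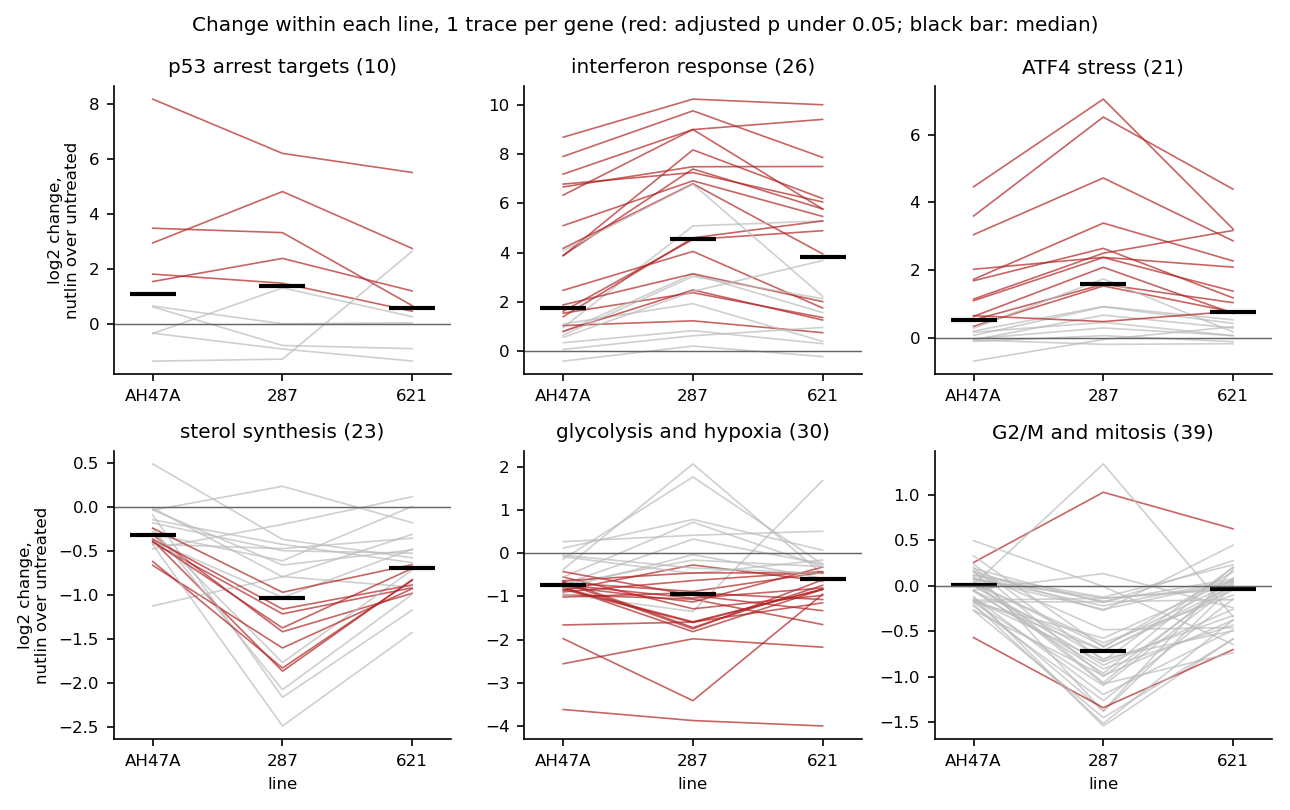
Log2 change within each R246Q line, nutlin over untreated, 1 trace per gene tested, for 6 gene lists; red traces have an edgeR adjusted p under 0.05 over the 3 lines and black bars are the median of the list in that line. Line 287 has the widest median in all 6 lists and the median of the mitosis list is -0.71 there, against 0.01 in AH47A and -0.04 in 621.

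B cell genes were lower with nutlin in part of their lists, 5 of 12 early B lineage genes and 5 of 14 mature B cell genes, with none higher, beside 4% of all genes called lower. Cd93, a marker of immature B cells, had 53.7, 191 and 248 CPM with nutlin and 120, 427 and 403 CPM untreated, a fall in each line from different starting levels (log2 -1.004 ± 0.15, edgeR adjusted p = 0.00283; 0.121 with all 36 libraries and an additive line term). Vpreb3, a surrogate light chain gene, had 57.5, 94.9 and 71.5 CPM with nutlin and 107, 177 and 130 CPM untreated (log2 -0.89 ± 0.14, edgeR adjusted p = 0.00404; 0.0927 without 621). Cd79a, a signalling chain of the B cell receptor, fell by 0.73 on the log2 scale (edgeR adjusted p = 0.0186; 0.229 without 621), while Ighm and Pax5 did not pass (log2 0.13 and -0.35). Without line 621, 1 early and 0 mature genes were called lower. Without line 287, 2 early genes were called lower and 1 higher, and without AH47A 3 mature genes were called lower. With all 36 libraries 2 early genes were called lower.

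Smaller lists held few calls, and their counts stand beside 6.65% of all genes called higher and 4% called lower. The lysosome and autophagy list had 11.5% called higher. Of 26 lysosome and autophagy genes 3 rose, led by Atg12, a ubiquitin-like conjugation protein of autophagy (log2 1.01 ± 0.17, edgeR adjusted p = 0.00552; 0.0586 without 621), with Sqstm1 and Gabarapl1, and without line 621 none was called. Of 7 MHC class II genes the transactivator Ciita fell (log2 -1.05 ± 0.27, edgeR adjusted p = 0.0347), with an adjusted p of 0.0507 without AH47A, 0.125 without 287 and 0.186 without 621. Of 5 plasma cell genes Derl3, of endoplasmic reticulum quality control, fell (log2 -1.26 ± 0.28, edgeR adjusted p = 0.0209), with 0.0582, 0.0816 and 0.107 when AH47A, 287 and 621 were left out in turn. DESeq2 called neither of these lists' members. Of 3 myeloid markers Itgam, an integrin chain, had 16.5, 30.3 and 7.21 CPM with nutlin and 2.61, 13.2 and 1.47 CPM untreated (log2 1.91 ± 0.30, edgeR adjusted p = 0.00472; 0.0713 without 621). None of 2 T cell markers and 1 fibroblast marker passed in edgeR, where 1 T cell marker was higher and 1 lower at an unadjusted p under 0.05, or in DESeq2, and no erythroid marker passed the filter on low counts.

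Outside these lists the steepest rises among genes at 5 CPM or more were Cxcl10, Npffr1, Gbp5, Got1l1, Micall2 and Dusp8. Cxcl10, a chemokine induced by interferon, had 11.1, 214 and 31.1 CPM with nutlin and 0 counts untreated, at least 806-fold higher. Npffr1, a neuropeptide receptor, had 2.22, 99.1 and 1.54 CPM with nutlin, so that line 287 gave most of its 668 counts, against 1 count untreated. Micall2, an actin-associated protein of cell junctions, had 19.02, 59.3 and 15.6 CPM with nutlin and 3 counts untreated (ratio 292, counting interval 99.5 to 1421). Among the genes that fell, Slc16a3, the lactate exporter MCT4, had 0.476, 0.461 and 8.23 CPM with nutlin and 1.67, 8.20 and 44.9 CPM untreated (log2 -2.71 ± 0.37, edgeR adjusted p = 0.00118; 0.0799 without 621 and 0.0907 with all 36 libraries). Cd244, a receptor of the SLAM family, had 1.90, 4.30 and 7.72 CPM with nutlin and 10.04, 17.1 and 15.4 CPM untreated (log2 -1.71 ± 0.30, edgeR adjusted p = 0.00665). Camk4, a calcium-dependent kinase, had 10.8, 4.15 and 3.09 CPM with nutlin and 28.4, 18.9 and 6.47 CPM untreated (log2 -1.58 ± 0.26, edgeR adjusted p = 0.00512).

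The size of the response differed between the 3 lines. The median absolute log2 change over all genes was 0.216 in AH47A, 0.433 in 287 and 0.319 in 621. Line 287 had 1070 genes over 2-fold higher and 767 over 2-fold lower, AH47A had 393 and 201, and 621 had 544 and 419. Across genes, which are not independent replicates, the responses of 2 lines had a Pearson correlation of 0.698 for AH47A and 287, 0.615 for AH47A and 621 and 0.704 for 287 and 621, without a test.

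The response of the R246Q lines was set against that of the negative control lines, to ask which genes respond differently to nutlin when the mutant is present. At an adjusted p under 0.05 in edgeR, 2 of 12321 genes had a larger signed response in R246Q (0.0162%) and 1 a smaller one (0.00812%). This model has no line by construct term, so it does not pair the nutlin and untreated libraries of a line and construct. With every line and construct as its own block, which pairs them, the counts were 169 and 133. With only the 12 R246Q and control libraries they were 262 and 256. Elovl6, a fatty acid elongase, had 250, 118 and 185 CPM in R246Q nutlin libraries against 393, 424 and 280 CPM in R246Q untreated ones. The control had 137, 60.2 and 95.3 CPM with nutlin and 384, 414 and 291 CPM untreated. The log2 change of Elovl6 was therefore -1.04 in R246Q and -1.96 in the control (difference 0.92 ± 0.15, edgeR adjusted p = 0.0284). The difference for Elovl6 was 0.83 in AH47A, 0.93 in 287 and 1.01 in 621, all in the same direction. Cd68, a lysosomal glycoprotein typical of macrophages, was low throughout. It had 2.20, 3.25 and 2.56 CPM with nutlin and 3.85, 4.75 and 5.05 CPM untreated in R246Q, against 5.66, 6.90 and 2.40 CPM with nutlin and 2.04, 2.43 and 2.21 CPM untreated in the control (difference -1.92 ± 0.36, edgeR adjusted p = 0.0298). Leaving out libraries moved these calls: the difference stayed within 0.86 to 0.97 for Elovl6, with adjusted p-values of 0.0381 to 0.242, and within -2.16 to -1.75 for Cd68, with adjusted p-values of 0.00629 to 0.492.

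None of the 11 panel genes, Trp53 and Myc included, was called in the edgeR model with line by treatment and construct by treatment terms. That model covers all 36 libraries, and all 11 of its estimates were below that of the control. With every line and construct as its own block, edgeR called Mdm2 and Trp53 of the panel. DESeq2 called Mdm2 (adjusted p = 0.0143). With only the 12 R246Q and control libraries edgeR called 4, Mdm2, Trp53, Bbc3 and Bcl2l11 (adjusted p = 0.000334, 0.000263, 0.00720 and 0.00801). Mdm2 changed by 1.87 on the log2 scale in R246Q and by 2.57 in the control (difference -0.70 ± 0.18, edgeR adjusted p = 0.0984; 0.0487 with the line and construct block). Trp53 changed by -0.49 in R246Q and 0.47 in the control (difference -0.97 ± 0.34, edgeR adjusted p = 0.246; 0.000528 with that block). Bbc3 changed by 3.99 in R246Q and by 4.94 in the control (difference -0.95 ± 0.46, edgeR adjusted p = 0.441) and Cdkn1a by 6.62 in R246Q and by 6.91 in the control (difference -0.28 ± 0.44, edgeR adjusted p = 0.881). Without line 287 the estimate for Cdkn1a was 0.23, above the control, and it was also above the control without the untreated library of line 287 from either construct. Of the 1159 genes called in the R246Q response, 1158 had the same sign in the control and 987 a smaller absolute change in R246Q, with a median absolute log2 change of 0.918 in R246Q and 1.19 in the control. Nearest to the threshold among genes that were not called were G6pdx, Pcna and Ppat, whose estimated changes were less negative in R246Q, and Dcaf4, Tom1l2, Kifc5b and Slc2a9, whose estimates were less positive there (adjusted p = 0.0666 to 0.0698 in edgeR). In the sterol list 20 of 23 genes had a higher signed response in R246Q than in the control. In the replication list it was 43 of 47, and in the ATF4 list 0 of 21, beside 6035 of 12321 over all genes. The median log2 differences of these lists from the control were 0.31, 0.21 and -0.36. From the mean of the other 4 mutants they were -0.09, 9.15e-05 and 0.07, without a test of the lists.

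**Figure D4:**
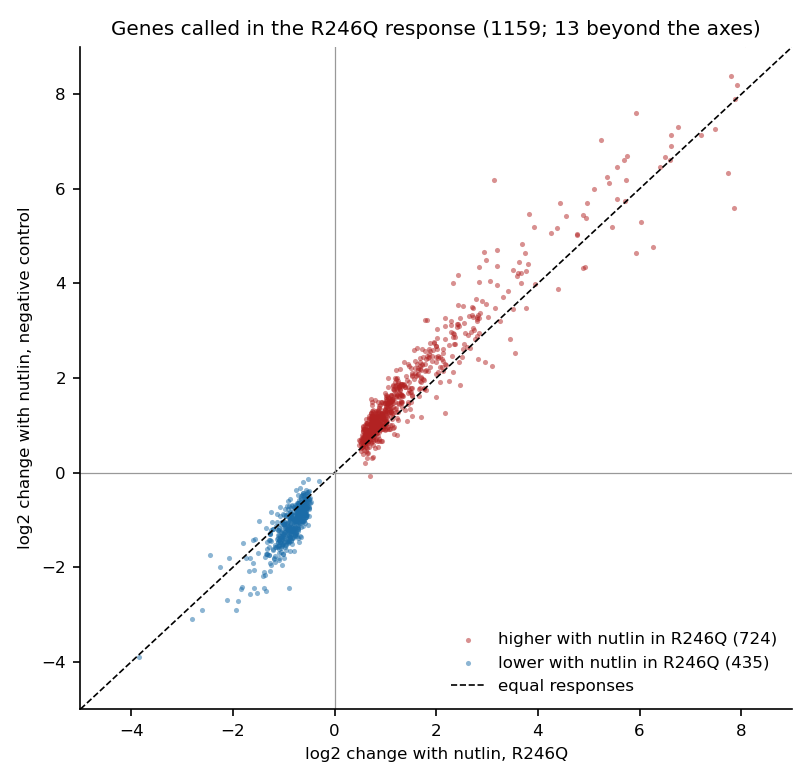
Log2 change with nutlin in R246Q lines (horizontal axis) against the negative control lines (vertical axis), from the 36-library model, for the 1159 genes called in the R246Q response; red genes were higher and blue genes lower with nutlin, and 13 genes lie beyond the axes. Most points sit on the control side of the dashed line of equal responses, with 987 of 1159 smaller in absolute size in R246Q.

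**Figure D5:**
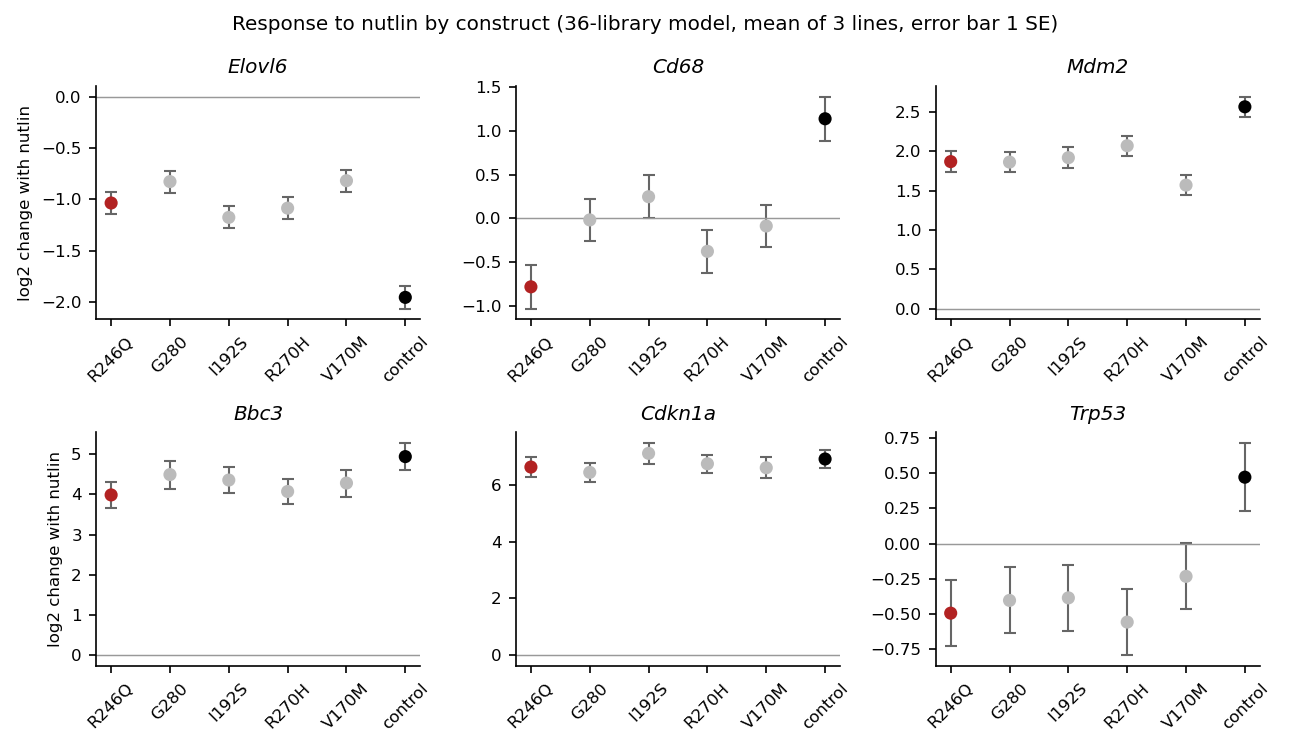
Log2 change with nutlin of 6 genes in R246Q, the other 4 mutants and the negative control, from the 36-library model. Points are means of 3 lines and bars are 1 SE. The model fits each line's own response to nutlin, so the bars do not show the spread between lines. For Elovl6 and Mdm2 the R246Q value lies among the other mutants, and for Cd68 it is the lowest of the 6 constructs.

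Against the mean of the other 4 mutants no gene was called in edgeR (0 of 12321, 0%), with 124 at an unadjusted p under 0.05, and DESeq2 called 0, with 60 at an unadjusted p under 0.05. The median standard error of the difference was 0.154 on the log2 scale. Mdm2 differed by 0.01 ± 0.14, Cdkn1a by -0.10 ± 0.36 and Trp53 by -0.10 ± 0.26 (edgeR adjusted p = 1 for each). The responses of Elovl6 in G280, I192S, R270H and V170M were -0.83, -1.18, -1.09 and -0.82, on both sides of the -1.04 of R246Q. The 2 differences, from the control and from the other mutants, share the R246Q libraries.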

How the data were processed

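RNA sequencing libraries of 3 Em-myc lymphoma lines with 6 constructs, untreated or with nutlin-3a, were deposited by the authors as raw counts per gene, as the whole numbers in the files show. Per the submitters' processing notes, reads were handled with bcl2fastq 1.8.4 and featureCounts on mm10/GRCm38. The aligner, annotation and strand setting are not given in these sources, so overlapping antisense genes cannot be told apart. The table held 27179 genes, and the 36 files of single samples were identical to it. It had 859 identifiers without a symbol, with 0.303% of counts. RefSeq GRCm38.p6 supplied coordinates for 25275 genes and the promoter sequences. Libraries held 5404113 to 10718302 counts.

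Genes were kept by edgeR's filterByExpr with a minimum count of 10 and scaled by TMM. The R246Q response was tested with edgeR 4.0.16 (R 4.3.3, limma 3.58.1), quasi-likelihood with robust dispersion, in 6 libraries with line as a block. The differences from the control and from the mean of the other 4 mutants came from 1 model over 36 libraries with line by treatment and construct by treatment terms. It has no line by construct term and so does not pair the nutlin and untreated libraries of a line and construct. Adjustment was by Benjamini-Hochberg over all genes tested, with calls at an adjusted p under 0.05. Standard errors are Wald errors. DESeq2 1.42.0, other scaling, no filter, other designs and leaving out lines or libraries were tried as alternatives. The scripts were tested on simulated data. Each pair of libraries came from the same line, and deviations from the group means within a pair correlated at 0.83 in AH47A, 0.736 in 287 and 0.846 in 621, so line pairs the samples. No label names separate cultures within a line, so p-values measure only the spread between these libraries.

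Named genes were a panel of p53 genes, up to 4 called members of each list by size with the same sign in 3 lines plus members against the list's majority, the 12 largest rises and 12 largest falls at 5 CPM or more, and the leading genes of each difference. The text prints a selection of these, and the results of some genes are not reported here. The members and lists were chosen with earlier results of these data known, although which libraries are R246Q follows from their labels.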

Additional observations from a re-analysis of the deposited data

Results flagged for a closer look

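The responses of Elovl6 and Cd68 to nutlin-3a differed between R246Q and negative control lines by the test of that difference in edgeR over 36 libraries. Elovl6 had a difference of 0.919 on the log2 scale (adjusted p = 0.0284), with a less negative change in R246Q in 3 of 3 lines. Cd68, a gene of low count, had a difference of -1.92 (adjusted p = 0.0298). Over 15 fits that each left out a line or a library, Elovl6 passed in 4 and Cd68 in 2.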

How the results depend on the processing

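The response counts of 724 higher and 435 lower genes stayed within 1.5 times under RLE scaling (707 and 416) and DESeq2 (736 and 438). Without the low-count filter they were 1093 and 814. With all 36 libraries they were 1497 and 1159 with an additive line term, and 2492 and 2384 with line by treatment. Without the replicate block, which ignores the pairing by line, they were 2 and 0. Leaving out 1 line gave 204 to 766 higher and 24 to 487 lower. No called gene that could still be tested changed sign, which the same sign in all 3 lines fixes for nearly all of them. For R246Q minus control, with 2 higher and 1 lower, no filter gave 0 lower, DESeq2 86 and 48 with 6927 adjusted p-values not given, the line and construct replicate block 169 and 133, additive line 0 and 0, and the 12 libraries alone 262 and 256. Leaving out a line or library gave 0 to 12 higher and 0 to 1 lower. Against the other mutants the count was 0 under each alternative run. The cause of these shifts was not tested. Depth limits genes near the filter, and with 3 lines the R246Q fit had 2 residual degrees of freedom. Its error estimates also drew on other genes, with a median of 8.92 prior degrees of freedom.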
